A study of Mus musculus with 6 samples.

Results

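The mouse genes of MHC class I and class II antigen presentation were examined in the duodenal epithelium with and without the nuclear receptor ESRRA. The set was chosen by symbol alone. It took every row that begins with H2-, the prefix of the mouse MHC, together with B2m, Tap1, Tap2, Tapbp, Tapbpl, Psmb8, Psmb9, Psmb10, Erap1, Ciita, Cd74 and Cd1d1, with no minimum on expression. This gave 49 of the 22611 rows, namely 26 class I heavy chains, 9 genes of the class I light chain, peptide loading and processing, 11 class II genes, the lipid-presenting Cd1d1 and 2 genes that carry the H2- prefix without presenting antigen. Nlrc5, the class I transactivator, and a row for the class II E alpha chain were not analysed here. RNA was sequenced from 3 WT and 3 Esrra-/- libraries, the latter from germline mutants that lack the gene in every tissue and the former from littermate controls. All of these mice were kept on a high-fat diet and both sexes were used. The first part of the small intestine was opened and its epithelial layer was released with EDTA. Each library is taken here as a bulk of crypt and villus cells and of any lymphocytes within the layer. The methods allow for whole epithelium or for crypts and villi taken apart, and do not name which applied to these libraries. Age, strain background and MHC haplotype of the individual mice are not given in the sources used here. The study describes the 3 libraries of each genotype as biological replicates, while the labels name no animal, litter or batch for a library.

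MHC class I molecules pair a heavy chain with beta-2-microglobulin and show peptides from inside the cell, cut by the proteasome and carried into the endoplasmic reticulum by the TAP transporter, to CD8 T cells. MHC class II molecules pair an alpha with a beta chain, travel with the invariant chain Cd74 to endosomes, take up peptides there with the help of H2-DM, and show them to CD4 T cells. Almost all cells carry class I, whereas class II is carried by professional antigen-presenting cells and, in the small intestine, also by enterocytes, where the transactivator Ciita and interferon gamma switch it on.

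Values are FPKM, fragment numbers corrected for transcript length and library size, as deposited. Fold changes are differences of log2(FPKM + 0.1), Esrra-/- minus WT, a scale that makes the change of weakly expressed genes look smaller. Of the 22611 genes, 10596 had a mean FPKM above 1 and were tested with limma, and a gene was called higher or lower at an unadjusted p under 0.05 with a log2 fold change beyond 0.58. Esrra itself stood between 49.4 and 104 FPKM in the WT libraries and between 8.72 and 10.4 FPKM in the Esrra-/- libraries. FPKM do not tell how many fragments were sequenced. The scaling read from the ratios of the lowest values lay between 0.826 and 1.02 times that of WT replicate 1. The summed FPKM of 4 Y-linked genes was between 27.3 and 46.7 in 4 libraries, but 0.0487 in WT replicate 3 and 0.222 in Esrra-/- replicate 3, the libraries at the bottom and the top of most class II genes below. Crypt markers, led by Olfm4, Top2a and Axin2, had negative fold changes for 8 of 8 genes with a median of -0.64, and 1 of them, Smoc2, was called lower (log2 fold change -0.84, unadjusted p = 0.00233, adjusted p = 0.247 by limma). Over all genes tested, 3.28% were called lower and 54.3% had a positive fold change.

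Class I and class II transcripts were abundant in this epithelium, and few of them were called different between the genotypes. Of the 35 members tested, 3 were called higher in Esrra-/- and 0 lower, while 1.35% of all genes tested were called higher and 3.28% lower. The 3 were the class II peptide editor subunit H2-DMb2, the secreted class I heavy chain H2-Q10 and the transporter subunit Tap2. By limma with Benjamini-Hochberg adjustment over the 10596 genes, 0 of the 35 had an adjusted p under 0.05, against 0.0378% of all genes. At an unadjusted p under 0.05, 4 of the 35 were higher and 0 lower, against 4.3% and 6.49% of all genes. The Esrra-/- values of 3 of the 35, Tap2, Tapbpl and H2-Q6, lay wholly above their WT values, against 8.45% of all genes, and those of 0 of the 35 lay wholly below, against 9.14%. The larger contrast was between the classes in how much single libraries differed within a genotype, as the following values show.

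**Figure D1:**
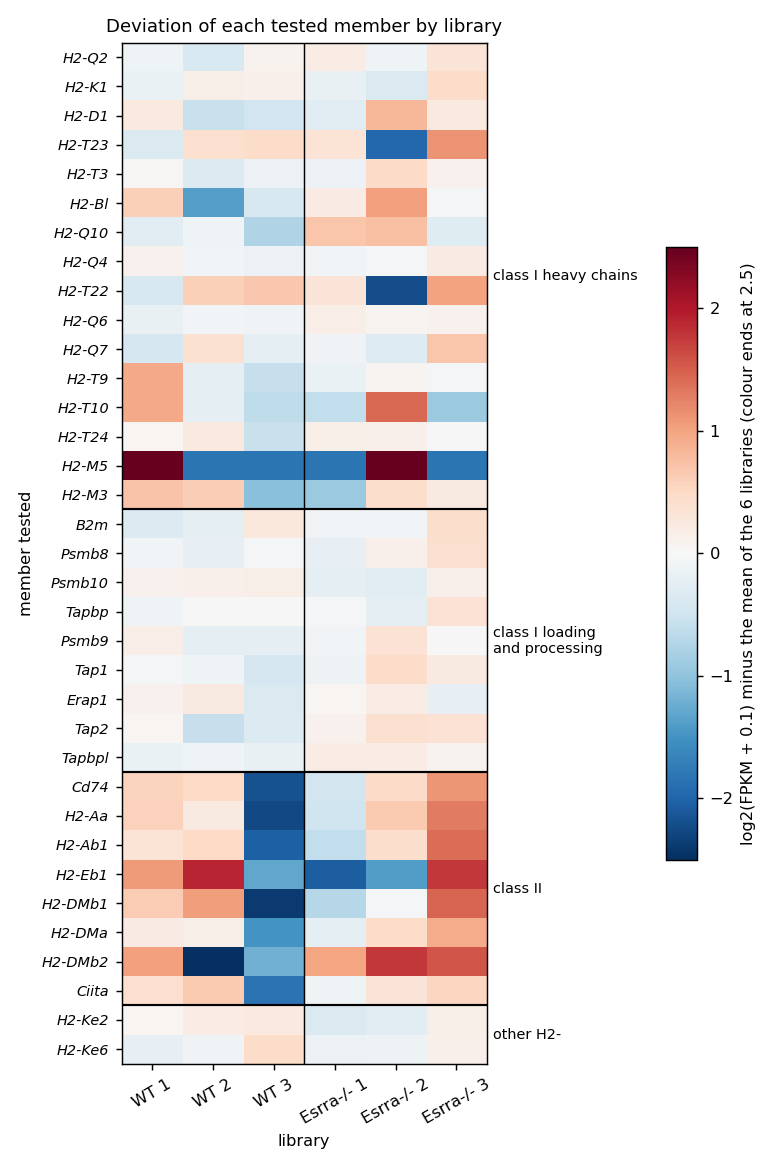
Deviation of log2(FPKM + 0.1) from the mean of the 6 libraries (colour, red higher and blue lower) for the 35 members tested (rows, grouped by role) in each library (columns). Of the 8 class II rows, 6 are bluest in WT replicate 3 and 5 are reddest in Esrra-/- replicate 3, while the loading and processing rows are pale throughout.

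Class II genes varied several-fold among replicates of a genotype. The invariant chain Cd74, which occupies the peptide groove of new class II dimers, was the most abundant class II transcript. In order of replicate number, it stood at 1288, 1235 and 192 FPKM in WT and at 634, 1224 and 1883 FPKM in Esrra-/-, an order kept in all values given below. WT replicate 3 was far below the other WT libraries, Esrra-/- replicate 3 was the highest of all, and the genotypes overlapped. The log2 fold change was 0.75 ± 0.77 (SE) with an adjusted p of 0.752 by limma, and it became -0.15 without WT replicate 3.

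The A alpha and A beta chains, which form the I-A molecule, followed the same order of libraries at the extremes. H2-Aa (chr17:34406276-34424772, mm9, minus strand) stood at 477, 372 and 66.2 FPKM in WT and at 224, 500 and 780 FPKM in Esrra-/-. H2-Ab1 (chr17:34400154-34406363, plus strand) stood at 401, 448 and 77.1 FPKM in WT and at 207, 429 and 834 FPKM in Esrra-/-. For both chains the lowest library was WT replicate 3, the highest was Esrra-/- replicate 3, and the genotypes overlapped. The log2 fold changes were 0.97 ± 0.78 (SE, adjusted p = 0.686 by limma) for H2-Aa and 0.81 ± 0.76 (SE, adjusted p = 0.733 by limma) for H2-Ab1. Without WT replicate 3 they were 0.08 and -0.01, respectively.

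Ciita, the transactivator on which class II transcription depends, was low in level but moved over the libraries in a similar way at its lower end. It stood at 5.28, 6.22 and 1.01 FPKM in WT and at 3.61, 4.93 and 5.71 FPKM in Esrra-/-. WT replicate 3 was again the lowest, and the highest value was that of WT replicate 2. The log2 fold change was 0.51 ± 0.62 (SE, adjusted p = 0.792 by limma), and -0.29 without WT replicate 3.

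**Figure D2:**
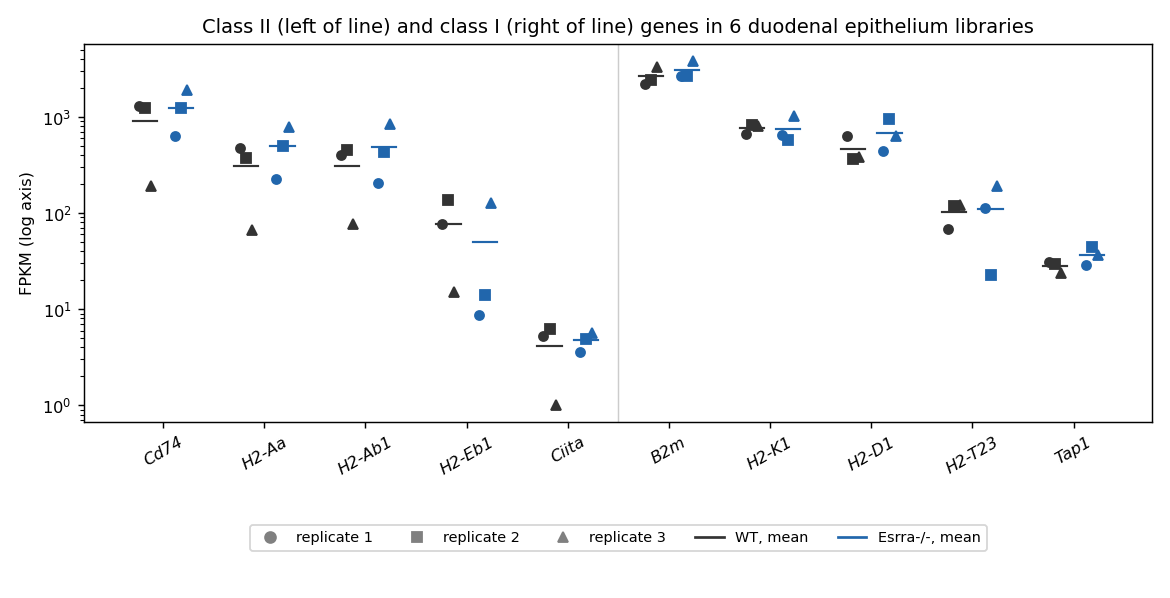
FPKM on a log axis of 5 class II genes (left of the line) and 5 class I genes (right of the line) in each WT (black) and Esrra-/- (blue) library, with the symbol giving the replicate number and the bar the mean of 3 libraries. Cd74, H2-Aa, H2-Ab1 and Ciita are lowest in WT replicate 3, H2-Eb1 is low in Esrra-/- replicates 1 and 2 as well, and H2-T23 is lowest in Esrra-/- replicate 2.

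Class II transcription is driven through an upstream block of X and Y boxes, bound by RFX, CREB and NF-Y with Ciita on top. The promoters of 4 class II genes in which an X or X2 box word was found are shown for this block, and that of B2m is shown as the class I light chain. H2-Eb2 also held an X box word and is not printed. The sequences are RefSeq's, from 250 bases before to 50 bases after the annotated start, on build GRCm38.p6, and 38 of the 49 members had one. Each sequence printed was found once in mm9, and its mm9 position is given. Searched on both strands were ATTGG (core of the Y box), AACNGATG (core of the X box, with letters chosen after these promoters had been read), TGACGTCA (the X2 box), GAAA followed after 2 free bases by a further GAAA (an interferon response element) and AAGGTCA (the core of the ESRR family's site). Capitals mark the X, X2 and Y box matches in the class II promoters and the interferon response element in B2m, and these matches do not overlap one another. B2m also holds the Y box core, which is left unmarked there.
H2-Aa, chr17:34424719-34425018, minus strand: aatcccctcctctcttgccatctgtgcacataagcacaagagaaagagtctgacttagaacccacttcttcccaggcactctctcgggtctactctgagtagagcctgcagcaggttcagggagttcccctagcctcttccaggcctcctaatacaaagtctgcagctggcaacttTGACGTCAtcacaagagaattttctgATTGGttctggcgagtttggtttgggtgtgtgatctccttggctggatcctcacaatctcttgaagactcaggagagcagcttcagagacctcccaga
H2-Eb1, chr17:34442562-34442861, plus strand: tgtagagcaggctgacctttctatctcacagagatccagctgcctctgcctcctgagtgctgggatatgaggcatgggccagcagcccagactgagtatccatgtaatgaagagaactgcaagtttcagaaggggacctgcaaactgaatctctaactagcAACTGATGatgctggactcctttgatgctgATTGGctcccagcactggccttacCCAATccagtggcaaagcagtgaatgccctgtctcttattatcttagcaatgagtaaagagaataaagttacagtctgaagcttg
H2-DMb1, chr17:34289886-34290185, plus strand: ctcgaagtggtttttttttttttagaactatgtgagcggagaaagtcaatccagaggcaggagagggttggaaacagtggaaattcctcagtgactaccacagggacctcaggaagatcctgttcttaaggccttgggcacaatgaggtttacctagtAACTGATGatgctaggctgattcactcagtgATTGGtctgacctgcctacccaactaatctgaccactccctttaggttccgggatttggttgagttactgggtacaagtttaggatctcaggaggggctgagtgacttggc
H2-DMb2, chr17:34281944-34282243, plus strand: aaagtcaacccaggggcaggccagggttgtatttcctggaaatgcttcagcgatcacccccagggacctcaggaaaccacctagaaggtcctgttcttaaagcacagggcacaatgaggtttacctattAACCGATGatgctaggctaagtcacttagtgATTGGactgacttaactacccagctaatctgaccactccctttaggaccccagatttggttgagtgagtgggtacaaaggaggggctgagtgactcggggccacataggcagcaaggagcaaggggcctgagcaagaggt
B2m, chr2:121973173-121973472, plus strand: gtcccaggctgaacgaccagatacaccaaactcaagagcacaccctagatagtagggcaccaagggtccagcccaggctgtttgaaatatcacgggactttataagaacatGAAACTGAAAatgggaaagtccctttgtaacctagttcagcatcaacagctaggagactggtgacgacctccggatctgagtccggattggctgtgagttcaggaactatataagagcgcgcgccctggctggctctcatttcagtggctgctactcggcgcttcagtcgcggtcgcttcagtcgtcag

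The X box core began 89 bases before the start in H2-Eb1, 92 bases before it in H2-DMb1 and 121 bases before it in H2-DMb2, followed by a Y box core at 59, 61 and 90 bases. The H2-DMb2 window lies within that gene as placed on mm9 below (chr17:34280252-34288498), so the annotations differ in its start. In H2-Aa the X2 box began 74 bases and the Y box core 48 bases before the start. AACNGATG was in 2.32% of all 32851 promoters and in 5 of the 38 members with a promoter (H2-DMb1, H2-DMb2, H2-Eb1, H2-Eb2 and the silent H2-M10.4). TGACGTCA was in 1.79% of all promoters and in H2-Aa alone among the members. The promoters of H2-DMa, H2-Oa and H2-Ob, not printed, held the Y box core but neither the X box core nor the X2 box. H2-Ab1, Cd74 and Ciita had no match to any word searched, or no promoter to search. ATTGG, a short and common word, was in 37.4% of all promoters and in 32 of the 38. The interferon response element was in 3.44% of all promoters and in B2m, where it began 139 bases before the start, Erap1, H2-T22 and H2-T23. AAGGTCA was in 4.72% of all promoters and in H2-Eb1 and Psmb10. A match is a description of letters in these windows and says nothing of binding in these cells.

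H2-Eb1, the beta chain of the I-E molecule, departed from the other class II chains. It lies at chr17:34442828-34453144 (mm9, plus strand), next to H2-Aa. Its values were 76.7, 138 and 15.0 FPKM in WT and 8.77, 13.98 and 126 FPKM in Esrra-/-. Esrra-/- replicates 1 and 2 were as low as WT replicate 3 or lower, while Esrra-/- replicate 3 was near the highest WT library. The log2 fold change was -1.11 ± 1.13 (SE, adjusted p = 0.750 by limma), the only negative one among the 8 class II genes tested. Taken as a share of H2-Ab1 in the same library, H2-Eb1 came to 19.1%, 30.7% and 19.4% in WT and to 4.23%, 3.26% and 15.1% in Esrra-/-. By that ratio WT replicate 3 resembled the other WT libraries, and the 3 Esrra-/- libraries lay below all 3 WT libraries, an observation made after these values were seen and not tested. H2-Eb1 was called lower when Esrra-/- replicate 3 was left out (log2 fold change -2.28, adjusted p = 0.546 by limma) and in the 4 libraries with Y-linked transcripts (-3.20, adjusted p = 0.208 by limma).

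H2-DM, a dimer of an alpha and a beta chain, exchanges the invariant chain remnant for peptide. The alpha chain gene H2-DMa stood at 38.4, 36.7 and 11.7 FPKM in WT and at 28.4, 45.6 and 63.4 FPKM in Esrra-/-, with a log2 fold change of 0.77 ± 0.49 (SE, adjusted p = 0.604 by limma). The beta chain is encoded by neighbouring copies, H2-DMb2 (chr17:34280252-34288498, mm9, plus strand) and H2-DMb1 (chr17:34290017-34297168, plus strand). H2-DMb2 stood at 15.0, 0.315 and 3.14 FPKM in WT and at 14.7, 25.0 and 21.96 FPKM in Esrra-/-. The lowest values were those of WT replicates 2 and 3, while WT replicate 1 was at the level of Esrra-/- replicate 1, so the genotypes overlapped. H2-DMb2 was called higher, with a log2 fold change of 2.88 ± 1.13 (SE), an unadjusted p of 0.0366 and an adjusted p of 0.427 by limma, and adjusted p between 0.225 and 0.771 over the other settings. The fold change lay between 1.52 without WT replicate 2 and 4.12 without WT replicate 1, and the call was lost without WT replicate 3 (3.01) and without Esrra-/- replicate 1, 2 or 3 (3.11, 2.72 and 2.82).

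H2-DMb1 was not called, at 44.1, 58.7 and 5.31 FPKM in WT and 17.2, 28.01 and 78.4 FPKM in Esrra-/- (log2 fold change 0.48 ± 0.94 SE, adjusted p = 0.878 by limma). Without WT replicate 3 its fold change was -0.60, and without Esrra-/- replicate 3 it was -0.13. The copies share much sequence: 37.5% of the 31-base words of H2-DMb1 transcripts and 42.0% of those of H2-DMb2 also occur in another gene, most of them in each other, so reads could be divided between them by the counting. Their sum was 59.1, 59.0 and 8.45 FPKM in WT and 31.8, 53.0 and 100.4 FPKM in Esrra-/-. The sum had WT replicate 3 lowest and Esrra-/- replicate 3 highest, as Cd74 did, and WT replicates 1 and 2 no longer differed.

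The remaining class II genes were near or below 1 FPKM and were not tested. H2-Oa, the alpha chain of the H2-DM inhibitor H2-O, stood at 0.629, 0.116 and 0.548 FPKM in WT and 1.21, 1.90 and 0.969 FPKM in Esrra-/-. All its Esrra-/- values were above all WT values, as for 8.45% of the genes tested. H2-Ob, the beta chain of H2-O, lay between 0.0321 and 0.336 FPKM, with means of 0.158 FPKM in WT and 0.0525 FPKM in Esrra-/-, the opposite direction. H2-Eb2 lay between 0.0516 and 0.198 FPKM.

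Over the 8 class II genes tested, 7 fold changes were positive and the median was 0.76, against 54.3% positive and a median of 0.03 over all genes tested. That median turned to -0.08 without WT replicate 3, when 3 of 8 were positive, was 0.37 without Esrra-/- replicate 3, and was -0.47 in the 4 libraries with Y-linked transcripts. Summed over all 11 class II members, the untested ones included, class II came to 2346, 2294 and 373 FPKM in WT and to 1140, 2272 and 3793 FPKM in Esrra-/-. WT replicate 3 was the lowest library for 6 of the 8 genes tested and Esrra-/- replicate 3 the highest for 5 of the 8. The median residual SD of the class II genes was 1.26 on the log2 scale, against 0.228 over all genes tested, and 8 of the 8 stood among the 10% of genes with the largest residual SD. In bulk samples, fewer cells of a type and less RNA per cell cannot be told apart.

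Cell type markers were read in the same libraries. Markers of the epithelium were high throughout, Krt8, Krt20 and Alpi being the most abundant of the list, and their 9 genes summed to between 5304 and 7171 FPKM in WT and between 5368 and 8038 FPKM in Esrra-/-. The 16 marker genes of macrophages and dendritic cells, which also carry class II, summed to between 9.54 and 11.6 FPKM in WT and between 9.49 and 11.2 FPKM in Esrra-/-. None of them exceeded 2.69 FPKM, 8 of the 16 stayed under 1 FPKM in all 6 libraries, and Lyz2, C1qa and Cd68 were the most abundant. B and plasma cell markers (8 genes) summed to between 3.84 and 8.50 FPKM in WT, with WT replicate 3 highest, and between 3.03 and 17.01 FPKM in Esrra-/-, where Igj made up 14.6 FPKM of replicate 2, and Igj, Cd79b and Cd79a were the most abundant. In WT replicate 3, where class II was lowest, the sums were 10.6 FPKM for macrophages and dendritic cells and 8.50 FPKM for B and plasma cells.

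T cell and intraepithelial lymphocyte markers (13 genes), led by Ccl5, Gzma and Gzmb, varied more. They summed to 219, 425 and 224 FPKM in WT and to 161, 365 and 407 FPKM in Esrra-/-. The lowest sum was that of Esrra-/- replicate 1, and WT replicates 1 and 3, with nearly equal sums, stood at 2346 and 373 FPKM in class II. Villus enterocyte markers, led by Apoa4, Fabp1 and Apoa1, summed to 41007, 39401 and 64042 FPKM in WT and to 59817, 48833 and 67456 FPKM in Esrra-/-, so WT replicate 3 and Esrra-/- replicate 3, opposite in class II, were both high in them. Mesenchyme and endothelium markers, led by Acta2, Pecam1 and Col3a1, summed to at most 2.30 FPKM. The part of these cell types in the class II values was not tested.

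Class I heavy chains were abundant, and the median spread among replicates was smaller than that of class II. The classical chains H2-K1 and H2-D1 present peptides on almost all cells. H2-K1 (chr17:34132962-34137278, mm9, minus strand) stood at 658, 821 and 808 FPKM in WT and at 649, 574 and 1026 FPKM in Esrra-/-. H2-D1 (chr17:35399675-35404444, plus strand) stood at 632, 362 and 383 FPKM in WT and at 446, 946 and 632 FPKM in Esrra-/-. Both overlapped between genotypes, and neither WT replicate 3 nor Esrra-/- replicate 3 was an extreme for H2-D1, whose highest library was Esrra-/- replicate 2. The log2 fold changes were -0.06 ± 0.26 (SE, adjusted p = 0.947 by limma) for H2-K1, a sign that turned under quantile normalization (0.09), and 0.54 ± 0.34 (SE, adjusted p = 0.601 by limma) for H2-D1.

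Among the nonclassical chains of the Q region, the row named H2-Q2 was as abundant as the classical chains, at 899 ± 143 FPKM in WT and 1084 ± 164.5 FPKM in Esrra-/- (mean ± SD, n = 3 each). H2-Q10, a heavy chain best known as a protein secreted by the liver, stood at 41.9, 46.8 and 29.9 FPKM in WT and at 82.2, 84.9 and 41.1 FPKM in Esrra-/-. Esrra-/- replicates 1 and 2 were above all WT libraries, and Esrra-/- replicate 3 lay within the WT range. H2-Q10 was called higher, with a log2 fold change of 0.76 ± 0.31 (SE), an unadjusted p of 0.0424 and an adjusted p of 0.444 by limma, and adjusted p between 0.0694 and 0.811 over the other settings. The call was lost without WT replicate 1 (0.81) or 3 (0.57), without Esrra-/- replicate 1 (0.60) or 2 (0.58), and was kept without Esrra-/- replicate 3 (1.10).

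H2-Q6 and H2-Q7, of the Qa-2 group, and H2-Q4 were lower in level. H2-Q6 stood at 10.2, 11.1 and 10.96 FPKM in WT and at 13.0, 12.3 and 12.5 FPKM in Esrra-/-. Every Esrra-/- library was above every WT library, but the log2 fold change was 0.23 ± 0.11 (SE, adjusted p = 0.4995 by limma) and the gene was not called. H2-Q7 came to 6.61 ± 2.08 FPKM in WT and 7.68 ± 3.04 FPKM in Esrra-/-, and H2-Q4 to 22.1 ± 2.0 FPKM and 23.25 ± 2.57 FPKM (mean ± SD, n = 3 each).

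In the T region, H2-T23 encodes Qa-1, a ligand of inhibitory receptors, and H2-T22 a ligand of some gamma delta T cells. H2-T23 (chr17:36166718-36169800, mm9, minus strand) stood at 68.8, 117 and 122 FPKM in WT and at 112, 22.7 and 192 FPKM in Esrra-/-. H2-T22 (chr17:36174073-36179692, minus strand) stood at 13.7, 27.4 and 29.1 FPKM in WT and at 22.7, 3.80 and 36.6 FPKM in Esrra-/-. Both were lowest in Esrra-/- replicate 2 and highest in Esrra-/- replicate 3, and neither was called (log2 fold changes -0.34 ± 0.72 and -0.59 ± 0.78, SE). Without Esrra-/- replicate 2 the fold changes were 0.56 and 0.38. H2-T10, which shares 56.1% of its 31-base words with H2-T22, had its highest value, 3.41 FPKM, in that same Esrra-/- replicate 2 and stood between 0.587 and 2.40 FPKM elsewhere. The sum of H2-T22 and H2-T10 was still lowest there, at 7.21 FPKM against 16.1 to 37.2 FPKM in the other libraries.

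H2-T3, the thymus leukaemia antigen of intestinal epithelium and a ligand of CD8 on intraepithelial lymphocytes, came to 87.0 ± 11.3 FPKM in WT and 108 ± 24 FPKM in Esrra-/- (log2 fold change 0.30 ± 0.20 SE, adjusted p = 0.613 by limma). H2-Bl, annotated as a polymorphic pseudogene, came to 50.7 ± 33.1 and 80.05 ± 32.33 FPKM, with a log2 fold change of 0.80 ± 0.50 (SE, adjusted p = 0.593 by limma) that passed the call without WT replicate 1 (1.30). H2-T9, all of whose 31-base words occur in other genes, came to 4.62 ± 2.80 and 3.85 ± 0.33 FPKM, and H2-T24 to 1.40 ± 0.40 and 1.55 ± 0.09 FPKM (mean ± SD, n = 3 each).

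The M region was nearly silent. H2-M3, which presents formylated peptides, stood at 1.14 ± 0.65 FPKM in WT and 0.938 ± 0.446 FPKM in Esrra-/- (mean ± SD, n = 3 each). H2-M5 was at 4.12 FPKM in WT replicate 1 and 4.44 FPKM in Esrra-/- replicate 2 and listed at 0 in the other 4 libraries. H2-M2 reached 0.459 FPKM, H2-M10.6 0.206 FPKM and H2-M10.1 0.0712 FPKM. The 7 genes H2-M1, H2-M9, H2-M10.2, H2-M10.3, H2-M10.4, H2-M10.5 and H2-M11 were listed at 0 in all 6 libraries, the H2-M10 genes being known from the vomeronasal organ.

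Over the 16 heavy chains tested, 10 fold changes were positive, the median was 0.12, and 1 gene was called higher and 0 lower. The sum over all 26 heavy chains was 2567, 2271 and 2580 FPKM in WT and 2632, 2842 and 3372 FPKM in Esrra-/-, with most of it from H2-Q2, H2-K1 and H2-D1. Each Esrra-/- library was above each WT library by this sum, narrowly so between 2580 and 2632 FPKM. Of single genes tested, 8.45% lay wholly above in Esrra-/-. The sum was read after the values were seen and not tested. Without WT replicate 3 the median was 0.00081 and 8 of 16 were positive. The median residual SD was 0.488 on the log2 scale, and 7 of 16 were among the 10% of genes with the largest residual SD. The 16 heavy chains share 31-base words with other genes, from 4.21% in H2-T3 through 20.5% in H2-K1, 26.1% in H2-D1 and 59.1% in H2-T22 to 100% in H2-T9, so levels of single genes of this family are uncertain.

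**Figure D3:**
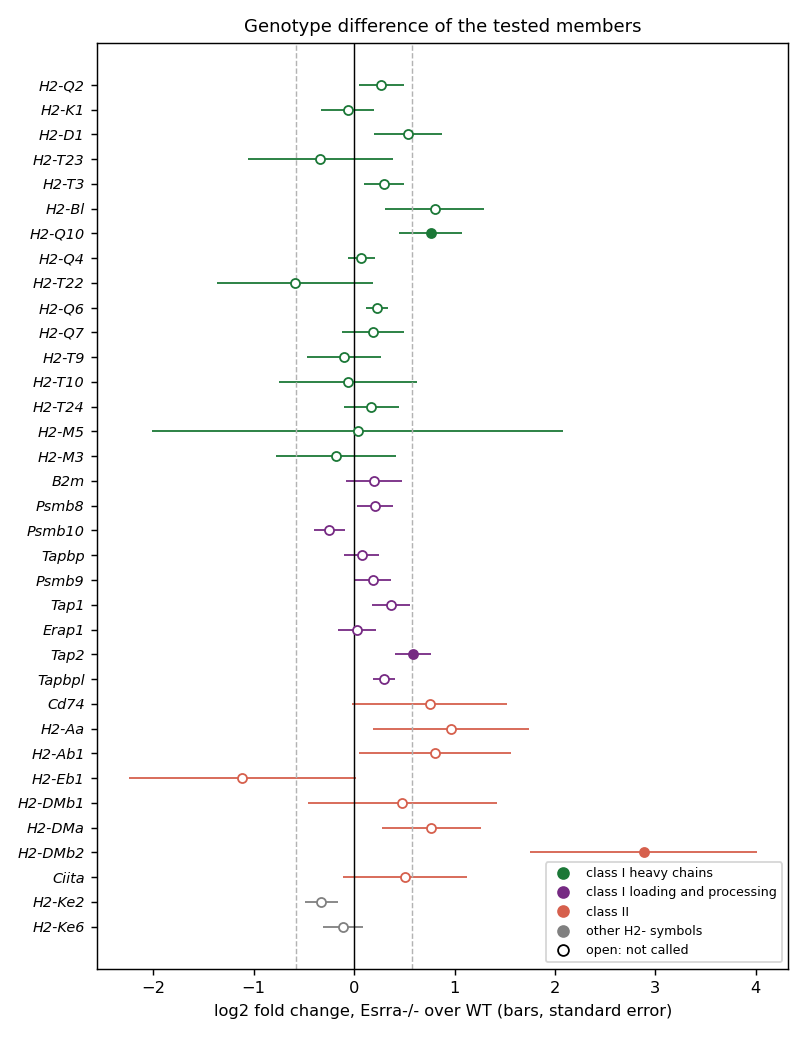
Log2 fold change of each of the 35 members tested, Esrra-/- over WT, with its standard error as a bar, coloured by role. Filled points are the 3 members called, H2-Q10, Tap2 and H2-DMb2, dashed lines mark 0.58 in either direction, and the bars of the class II genes are longer than those of the loading and processing genes.

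The light chain and the loading and processing genes had a smaller median spread than the heavy chains and the class II genes. B2m, which shares no 31-base word with another gene, stood at 2221, 2396 and 3337 FPKM in WT and at 2662, 2665 and 3794 FPKM in Esrra-/-. It was highest in replicate 3 of either genotype, the libraries at opposite ends for class II, and the genotypes overlapped (log2 fold change 0.20 ± 0.28 SE, adjusted p = 0.823 by limma). The residual SD of the 9 genes had a median of 0.234, near the 0.228 of all genes tested, and 0 of 9 were among the 10% with the largest residual SD. Fold changes were positive for 8 of 9, with a median of 0.20.

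TAP is a dimer of Tap1 and Tap2 that pumps peptides into the endoplasmic reticulum. Tap1 stood at 31.1, 29.6 and 23.7 FPKM in WT and at 28.9, 43.8 and 37.0 FPKM in Esrra-/-, and its log2 fold change of 0.37 ± 0.19 (SE, adjusted p = 0.533 by limma) was not called. Tap2 (chr17:34340472-34353266, mm9, plus strand) stood at 25.8, 16.8 and 19.7 FPKM in WT and at 27.2, 33.0 and 32.4 FPKM in Esrra-/-. All Esrra-/- libraries lay above all WT libraries, by the narrowest margin between Esrra-/- replicate 1 and WT replicate 1. Tap2 was called higher, with a log2 fold change of 0.59 ± 0.18 (SE), an unadjusted p of 0.0138 and an adjusted p of 0.353 by limma, and adjusted p between 0.184 and 0.761 over the other settings. It fell under the fold threshold without WT replicate 2 (0.44) or 3 (0.56) and without Esrra-/- replicate 2 (0.53) or 3 (0.55).

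Tapbpl, a tapasin relative that edits class I peptides, stood at 15.8, 16.5 and 15.6 FPKM in WT and at 20.1, 20.0 and 18.8 FPKM in Esrra-/-. Every Esrra-/- library was above every WT library, with an unadjusted p of 0.0260 and an adjusted p of 0.396 by limma, but the log2 fold change of 0.30 ± 0.11 (SE) was short of 0.58. Tapasin itself, Tapbp, came to 58.8 ± 2.8 FPKM in WT and 62.9 ± 13.6 FPKM in Esrra-/-, and Erap1, which trims peptides in the endoplasmic reticulum, to 26.5 ± 5.4 and 26.8 ± 3.6 FPKM (mean ± SD, n = 3 each).

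The immunoproteasome subunits Psmb8, Psmb9 and Psmb10 replace Psmb5, Psmb6 and Psmb7 in cells exposed to interferon. Psmb8 came to 112 ± 7 FPKM in WT and 132 ± 27 FPKM in Esrra-/-, Psmb9 to 53.9 ± 8.9 and 61.5 ± 10.7 FPKM, and Psmb10 to 109 ± 1 and 92.8 ± 14.7 FPKM (mean ± SD, n = 3 each), with none called. As a ratio of FPKM, Psmb8 was 2.004 to 2.38 times Psmb5 in WT and 2.28 to 2.73 times it in Esrra-/-. Psmb10 was 1.91 to 2.23 times Psmb7 in WT and 1.76 to 1.99 times it in Esrra-/-, whereas Psmb9 was below Psmb6 in every library, at 31.4% to 51.1% in WT and 33.0% to 58.01% in Esrra-/-.

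Class II was set against class I within each library by the ratio of Cd74 to B2m. Cd74 came to 57.99%, 51.6% and 5.76% of B2m in WT and to 23.8%, 45.9% and 49.6% in Esrra-/-. WT replicate 3 stood apart, since it had the second highest B2m and the lowest Cd74. The mean log2 ratio was -1.95 ± 1.88 in WT and -1.40 ± 0.58 in Esrra-/- (SD, n = 3 each). The difference of 0.55 was not significant by a two-sided exact permutation test (p = 1.0), where 3 against 3 libraries cannot give a p below 0.1. Without WT replicate 3 the difference was -0.53 (exact permutation p = 0.2), and in the 4 libraries with Y-linked transcripts it was -0.73 (exact permutation p = 0.333). In both cases every Esrra-/- ratio lay below every WT ratio, and each p is the smallest that so few libraries can give. Both leave out WT replicate 3, already seen to stand apart on this ratio, so they are not separate observations. The range with each library left out in turn is given at the end.

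The other members were outside the comparison of the classes. Cd1d1, which presents lipids, lay between 0.246 and 0.407 FPKM and was not tested. H2-Ke2, known as a prefoldin subunit, came to 43.9 ± 3.2 FPKM in WT and 35.4 ± 7.0 FPKM in Esrra-/- (log2 fold change -0.33 ± 0.17 SE, adjusted p = 0.531 by limma). H2-Ke6, known as a hydroxysteroid dehydrogenase, came to 22.4 ± 5.9 and 20.4 ± 2.2 FPKM, with a log2 fold change of -0.11 ± 0.20 (SE) (mean ± SD, n = 3 each).

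Genes that act on the members were read from lists chosen by function, and 0 were called in either direction, against 4.63% of all genes tested in both directions together. Among the 7 factors of the class II promoter, Nfyc was the most abundant, followed by Rfxank and Nfya. Rfxank stood at 7.52, 8.54 and 8.82 FPKM in WT and at 10.9, 9.77 and 10.0 FPKM in Esrra-/- (log2 fold change 0.30, adjusted p = 0.432 by limma), and 5 of the 7 fold changes were negative, with a median of -0.04. The summed FPKM of the 7 was 73.9 in WT replicate 3, within the WT range of 68.7 to 74.1. Interferon gamma signalling, led by Ifngr2, Irf1 and Ifngr1, had 9 of 11 positive fold changes and a median of 0.23, while Ifng itself stayed at or below 0.246 FPKM.

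The interferon-inducible GTPases, led by Igtp, Ifi47 and Irgm1, had 6 of 13 genes tested, 5 positive and a median of 0.19. Their sum was lowest in WT replicate 3, at 43.4 FPKM against 61.9 to 93.2 FPKM in the other libraries. Endosomal processing enzymes, led by Ctsz, Ifi30 and Ctsb, had 6 of 8 positive and a median of 0.12, and their sum in WT replicate 3, 804 FPKM, was the highest of WT. The folding and loading partners of the endoplasmic reticulum, led by Calr, Hspa5 and Pdia3, had a median of 0.08 over 8 genes, and the standard proteasome and its activator, led by Psme2, Psme1 and Pomp, a median of -0.03 over 7 genes. Of 6 costimulatory genes, Icosl alone passed the filter on low values, followed in level by Cd274 and Cd40, and Cd80, Cd86, Cd40 and Pdcd1lg2 stayed under 1 FPKM in all libraries.

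The MHC interval on chromosome 17 holds 29 of the members tested, from Tapbp to H2-M3, and 86 other genes tested (chr17:34052844-37620497, mm9, taken out to the untested H2-M2). Of the other 86 genes, 3 were called higher (Btn3a3, Btnl7 and Atat1) and 4 lower (Rps18, Vars, Tubb5 and 2310061I04Rik), beside 1.35% and 3.28% of all genes tested. Some other genes of the interval had low values in the same libraries as a member. H2-T23 and H2-T22 were low in Esrra-/- replicate 2 as were the predicted genes Gm11127 (10.0 FPKM there and 36.7 to 131 FPKM elsewhere) and Gm8909 (7.65 FPKM there and 37.3 to 87.1 FPKM elsewhere). Of the 11 genes tested from H2-T23 to H2-T3, 6 lay more than 1 log2 unit below their own mean in that library. The 6 were these 4, 2410017I17Rik and RP23-108F2.6, while H2-Bl, H2-T10, H2-T9 and H2-T3 were above their own means. By shared words of transcript sequence, Gm11127 was among the closest partners of H2-T22, H2-T10, H2-T9 and H2-T3. Gm8909 was among those of H2-T10, H2-Q2, H2-Q7 and H2-Q10. RP23-108F2.6 is placed on nearly the same bases as Gm8909. Reads could be divided between these genes and members by the counting, so the low values may not be separate observations. H2-Eb1 was low in Esrra-/- replicates 1 and 2, as were Btnl6 (24.6 and 19.9 FPKM, against 60.6 to 125 FPKM elsewhere) and Rps18 (16.8 and 16.5 FPKM, against 191 to 614 FPKM elsewhere). Of the 22 genes tested from Rps18 to Btnl6, these 3 lay more than 1 log2 unit below their own mean in both libraries, against 0.17% of all genes tested. Rps18 and Btnl6 themselves set the ends of this stretch. In all, 7 of the 22 lay below their own mean by any amount in both, and the share of all genes that did so was not taken. The genes outside the set were named after their values were seen.

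Counted over the interval, 10.3% of its members and 6.98% of its other genes lay more than 1 log2 unit below their own mean in Esrra-/- replicate 2, against 1.09% of all genes tested. The other genes were Rps18, Btnl6 and, from the stretch between H2-T23 and H2-T3, Gm11127, 2410017I17Rik, Gm8909 and RP23-108F2.6. In WT replicate 3, 27.6% of the members and 1.16% of the other genes lay that far below, against 1.33% of all genes tested. The members were the 6 class II genes H2-Aa, H2-Ab1, H2-DMa, H2-DMb1, H2-DMb2 and H2-Eb1 together with H2-M5 and H2-M3. Whether the mice differed in the sequence of the interval was not tested.

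**Figure D4:**
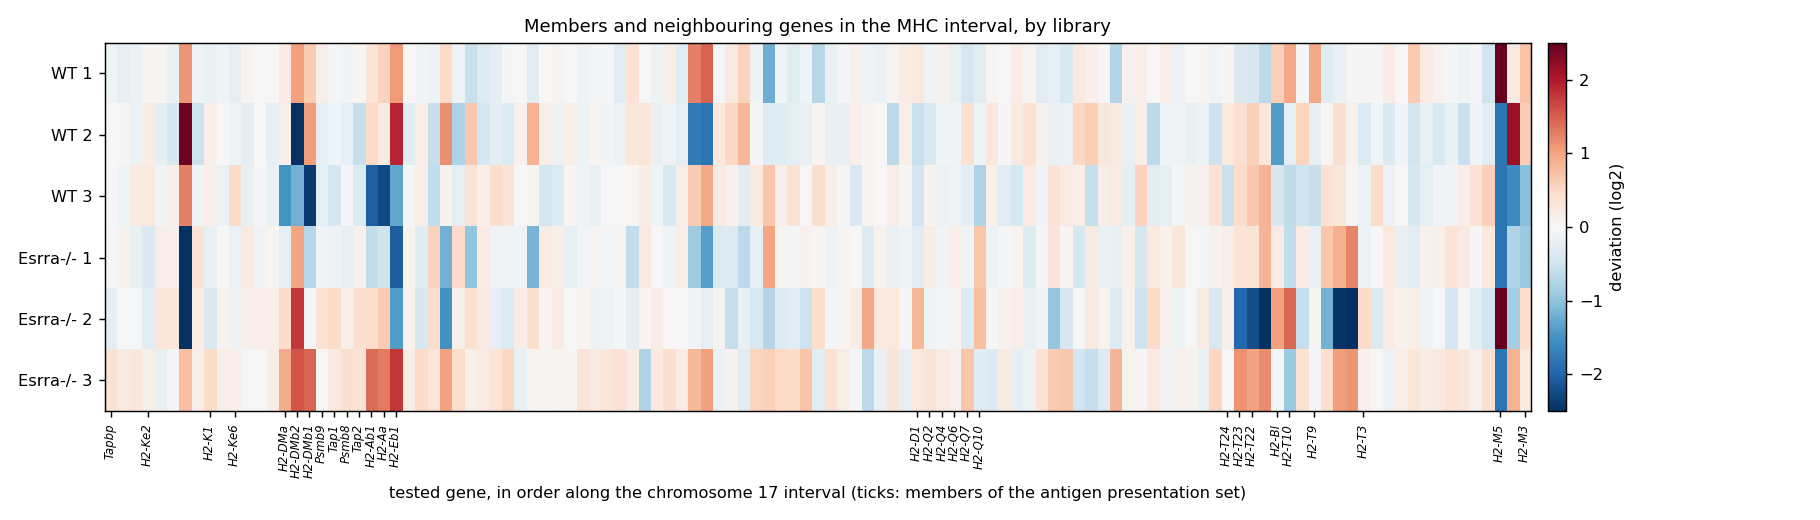
Deviation of log2(FPKM + 0.1) from the mean of the 6 libraries (colour, red higher and blue lower) for the 115 genes tested in the MHC interval, in chromosome order, with one row per library and the 29 members named. Blue runs are seen at the class II genes in WT replicate 3 and around H2-T23 and H2-T22 in Esrra-/- replicate 2.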

How the data were processed

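Libraries of duodenal epithelial RNA, 3 WT and 3 Esrra-/-, were analysed. Per the study's methods, the authors ran FastQC, then Kallisto against mm9, and took FPKM from DESeq2. The annotation is not given in the sources used here. The deposited FPKM table holds 22611 genes and 1 column per library. A deposited table of the authors' own comparison (mean normalized count, fold change, standard error, statistic, p and adjusted p) was not used. FPKM does not give the depth of each library, so no counting interval is given.

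Members were taken by symbol, with no filter. The members and all lists were chosen with earlier results of these data known. The 10596 genes whose mean FPKM exceeded 1 entered a test on log2(FPKM + 0.1) with limma 3.58.1 (R 4.3.3, lmFit and eBayes with a trend, no covariate) and Benjamini-Hochberg adjustment over all of them. This test was checked on simulated data. The Cd74 to B2m ratio was compared with an exact permutation test (scipy 1.17.1). Residual SD is the spread within genotypes in this fit. Positions and transcripts came from GENCODE M1 on mm9, and shared 31-base words were counted over its transcripts, which may differ from those the authors used. The Y-linked genes were Ddx3y, Eif2s3y, Kdm5d and Uty. Members with a mean FPKM above 1 were named with values, the others by range or highest value, apart from H2-Oa (every library) and H2-Ob (range and means). Of the other lists, genes called and the 3 most abundant were named, and also the weakly expressed Ifng, Cd80, Cd86 and Pdcd1lg2. The alternatives tried were a pseudocount of 1, other filters on low values, quantile normalization, median-ratio scaling, no trend, the replicate number as a block, Y-linked transcripts as a covariate or as a restriction to 4 libraries, and each library left out.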

Additional observations from a re-analysis of the deposited data

How the results depend on the processing

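Of the 35 members, 3 were called higher as reported, 0 under quantile normalization and 1 in the 4 libraries with Y-linked transcripts, where 2, H2-Eb1 and H2-DMb1, were called lower in place of 0. With 1 library left out, 0 to 3 were called higher and 0 to 1 lower, and 0 were called higher without WT replicate 3 or without Esrra-/- replicate 2. Class I heavy chains called were 0 under quantile normalization and without a trend, in place of 1. Loading and processing genes called were 0 with a pseudocount of 1, under quantile normalization and in the 4 libraries, in place of 1. Class II genes called were 2 with no filter and in the 4 libraries, and 0 with FPKM above 1 in all libraries, under quantile normalization and with Y-linked transcripts as a covariate, in place of 1. Each of these 3 counts ran from 0 to 1 with 1 library left out. Genes called in the 7 lists of genes that act on the members were 1 with no filter, with the replicate block, with the covariate and in the 4 libraries, in place of 0, and 0 to 2 with 1 library left out. The Cd74 to B2m difference was -0.73 in the 4 libraries and ran from -0.53 to 1.14 with 1 library left out. The cause of these changes was not tested.

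The replicate numbers were not taken as pairs. Same-numbered libraries deviated with correlations of 0.01, 0.26 and 0.38, and not every library correlated best with its own number. With the block 3 members were called higher and 0 lower.

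In the 4 libraries the sign turned for Cd74 (-0.52), H2-Aa (-0.33), H2-Ab1 (-0.51), H2-DMb1 (-1.21), H2-DMa (-0.059), Ciita (-0.43), H2-Q4 (-0.069), H2-Q7 (-0.19), H2-T24 (-0.015), Tapbp (-0.065), Erap1 (-0.040), H2-T10 (0.051) and H2-Ke6 (0.0055). It turned for H2-K1 (0.088), Erap1 (-0.026) and H2-T10 (0.025) under quantile normalization and for H2-T10 (0.014) with a pseudocount of 1. With 1 library left out, the fold change spanned zero for Cd74 (-0.15 to 1.22), H2-Ab1 (-0.013 to 1.32), H2-DMb1 (-0.60 to 1.12), Ciita (-0.29 to 0.96), H2-K1 (-0.31 to 0.11), H2-T23 (-0.98 to 0.56), H2-T22 (-1.24 to 0.38), H2-T9 (-0.41 to 0.35), H2-T10 (-0.79 to 0.39), H2-T24 (-0.059 to 0.33), H2-Q4 (-0.017 to 0.14), H2-Q7 (-0.11 to 0.43), H2-M3 (-0.75 to 0.24), H2-M5 (-1.80 to 1.84), Tapbp (-0.089 to 0.21), Erap1 (-0.15 to 0.15) and H2-Ke6 (-0.24 to 0.094). Over single members, 284 of 310 values under the other settings and 170 of 210 with 1 library left out kept their direction and their side of the threshold. The depth of each library is not known from FPKM, and the median residual SD of class II, 1.26 on the log2 scale, limits what 3 libraries per genotype could show there.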
